A study of Mus musculus with 8 samples.

Results

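Transforming growth factor beta (TGF-beta) signalling was followed in cultured mouse heart muscle cells through the genes of its ligands, receptors and latent binding proteins, across 4 libraries treated with simvastatin and 4 control libraries. The 10 genes were chosen by name: the ligands Tgfb1, Tgfb2 and Tgfb3, the receptors Tgfbr1, Tgfbr2 and Tgfbr3, and the latent TGF-beta binding proteins Ltbp1, Ltbp2, Ltbp3 and Ltbp4. They are 10 of the 49315 Ensembl genes in the count tables, each matched to 1 identifier. The simvastatin libraries came from C57/Bl6 cardiomyocytes of embryonic day 12.5, cultured in medium with 10 µM simvastatin, a drug that blocks the synthesis of mevalonate, and the control libraries from the same kind of cells in control medium. All libraries pooled male and female embryos, and the sources used here do not give the time in the drug.

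TGF-beta ligands leave the cell as latent complexes, in which a prodomain keeps the growth factor inactive and an LTBP anchors the complex to the matrix. Proteases, integrins or thrombospondin release the ligand. It then binds the type II receptor TGFBR2, which phosphorylates the type I receptor TGFBR1 (also called ALK5), and that receptor phosphorylates SMAD2 and SMAD3. TGFBR3, or betaglycan, is a co-receptor that presents ligand, TGFB2 above all, to the signalling pair. LTBP2 stands apart in its family, since it does not bind latent TGF-beta and is known as a protein of elastic microfibrils. In the mouse embryo, Tgfb2 and Tgfbr3 are needed for the formation of cardiac cushions and coronary vessels.

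Promoters of 8 of the 10 genes were found in the RefSeq table (build GRCm38.p6), those of Tgfb3 and Tgfbr3 not being among them. Shown here are the 250 bases before the start site of Tgfb2 and Ltbp2, which both fell with simvastatin, and, for contrast, of Ltbp1, an LTBP gene whose difference did not pass the test (the first of its 2 annotated starts). Capitals mark matches, on either strand, to the SMAD box CAGAC or the E-box CACGTG.
Tgfb2 (chr1:186705990-186706239, minus strand): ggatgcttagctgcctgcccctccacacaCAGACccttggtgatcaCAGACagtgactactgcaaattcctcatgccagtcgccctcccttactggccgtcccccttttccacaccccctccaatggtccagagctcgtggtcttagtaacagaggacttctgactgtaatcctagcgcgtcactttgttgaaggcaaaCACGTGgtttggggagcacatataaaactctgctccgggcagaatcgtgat
Ltbp2 (chr12:84876492-84876741, minus strand): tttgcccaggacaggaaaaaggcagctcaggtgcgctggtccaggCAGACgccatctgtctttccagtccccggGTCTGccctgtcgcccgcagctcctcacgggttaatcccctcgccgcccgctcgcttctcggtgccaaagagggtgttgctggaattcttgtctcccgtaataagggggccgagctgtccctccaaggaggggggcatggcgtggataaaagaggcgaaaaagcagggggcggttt
Ltbp1 (chr17:75005279-75005528, plus strand): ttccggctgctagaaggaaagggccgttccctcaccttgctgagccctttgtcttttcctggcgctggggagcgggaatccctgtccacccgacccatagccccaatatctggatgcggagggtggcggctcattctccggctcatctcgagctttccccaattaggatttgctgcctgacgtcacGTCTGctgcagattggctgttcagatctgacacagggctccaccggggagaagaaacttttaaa

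The SMAD box, a short and common motif, matched 2 times in Tgfb2, 2 times in Ltbp2 and 1 time in Ltbp1, and it stood in 42.2% of all 32851 promoter windows of the same length. Before the second start of Ltbp1, which is not printed, it matched 2 times, so the count for Ltbp1 depends on the start. The E-box matched once, in Tgfb2, at 51 bases before the start site, and stood in 6.02% of windows. No match was found in these 3 windows for the AP-1 motif TGANTCA (6.75% of all windows), the TEAD motif GGAATG (12.6%), the sterol response element TCACNCCAC (1.05%) or the CArG box bound by SRF (1.47%). No 2 matches overlapped, and a match describes letters in the window only.

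The depth was even, with 30474586 to 34993255 counts per simvastatin library and 31457872 to 35215640 per control library. By their column headers, the libraries fall into set 1 (replicates 1 and 3 of both groups) and set 2 (replicates 2 and 4). The headers also number them 1 and 2 inside a set, and the sources used here do not say whether a number shared by both sets marks one culture. P-values therefore measure only the spread between these libraries, which may be technical. Control replicate 2 stood apart in Hmgcs1, a sterol synthesis gene that responds to mevalonate block and was chosen after its values were seen. Its level was 1107.5, 2036.8, 1441.9 and 2006.2 CPM in simvastatin replicates 1 to 4, and 341.5, 1203.4, 257.3 and 377.3 CPM in control replicates 1 to 4. Of 16126 genes tested across the series, 7.79% rose and 9.61% fell with simvastatin (edgeR, p adjusted by Benjamini-Hochberg under 0.05).

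With simvastatin, Tgfb3, Tgfb2 and Ltbp2 fell, Tgfbr3 rose, and the other 6 genes did not pass the test. All 10 genes passed the filter on low counts. The 3 that fell had simvastatin libraries entirely below the control libraries, an arrangement found in 12.1% of all genes tested. None of the 10 had simvastatin libraries entirely above the controls, against 11.0% of all genes. The median log2 fold change of the 10 genes was -0.12, against 0.01 for all genes tested. In bulk RNA, fewer cells of a type and less RNA per cell cannot be told apart. Without control replicate 2, the same 3 genes fell and 0 rose (Tgfbr3 edgeR adjusted p = 0.0586).

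**Figure D1:**
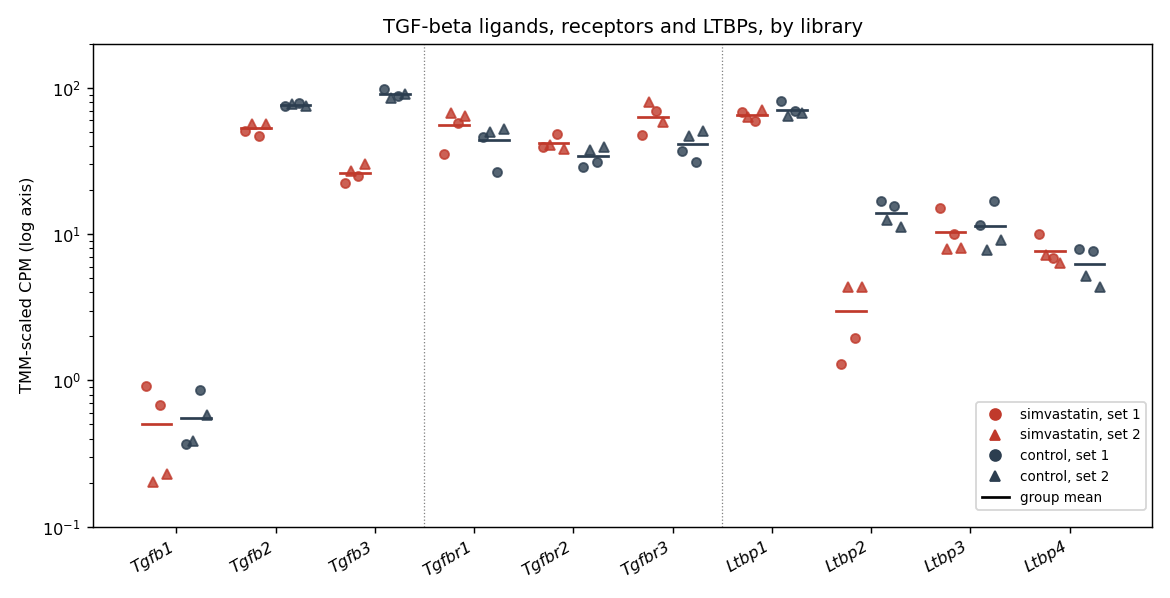
Level of each gene in every library as TMM-scaled CPM on a log axis, simvastatin in red to the left of control in dark blue, with a line at each group mean and symbols for the 2 sets. The simvastatin libraries lie wholly below the controls for Tgfb2, Tgfb3 and Ltbp2, and the groups overlap for the other 7 genes.

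Among the ligands, Tgfb3 changed most. It lies on chromosome 12, 86056744 to 86079041 (minus strand; all gene positions are those of the count tables, on GRCm38). Its level was 22.3, 26.9, 24.9 and 30.1 CPM in simvastatin replicates 1 to 4, and 98.7, 85.8, 87.7 and 90.4 CPM in control replicates 1 to 4. CPM are counts relative to a common library total after TMM scaling, which evens out differences in library composition. Every simvastatin library was under every control, and the means were 26.0 ± 3.29 CPM with simvastatin and 90.6 ± 5.69 CPM in controls (SD, n = 4 each). That is a log2 fold change of -1.80 ± 0.11 (SE), with an edgeR adjusted p of 1.46e-05. By p-value, Tgfb3 ranked 12 among the 16126 genes. With simvastatin its mean was 28.7% of the control mean.

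Tgfb2, the ligand that depends most on betaglycan (chromosome 1, 186622792 to 186705989, minus strand), fell less. It stood at 51.1, 56.6, 47.0 and 57.0 CPM in simvastatin replicates 1 to 4, and at 75.6, 77.2, 78.6 and 75.1 CPM in control replicates 1 to 4. The controls lay within a few CPM of each other, and no simvastatin library reached them. The log2 fold change was -0.53 ± 0.09 (edgeR adjusted p = 0.00312), with 69.1% of the control mean left.

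Tgfb1, the ligand best known from immune cells and fibrosis, was close to absent from these libraries. It had 29, 7, 21 and 7 reads in simvastatin replicates 1 to 4, and 13, 13, 30 and 18 reads in control replicates 1 to 4. The groups overlapped at 0.202 to 0.914 CPM with simvastatin and 0.370 to 0.858 CPM in controls. A change was not detectable at this depth: the log2 fold change was -0.12, with a 95% interval by limma-voom of -1.48 to 0.85.

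The 2 ligands that were well expressed differed in how much they fell, so their proportions differed between the groups. Per kilobase of exonic length, the scale on which genes can be compared, Tgfb2 made up 52.0% to 56.6% of the summed ligand level with simvastatin and 30.9% to 34.4% in controls. Tgfb3 made up 42.2% to 47.3% with simvastatin and 65.4% to 69.0% in controls. The summed ligand level was 16.9 ± 1.59 CPM per kb with simvastatin and 40.1 ± 1.52 CPM per kb in controls. Tgfb3 was therefore the leading ligand transcript in every control library and Tgfb2 in every simvastatin library. These shares are a description of genes already tested singly.

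**Figure D2:**
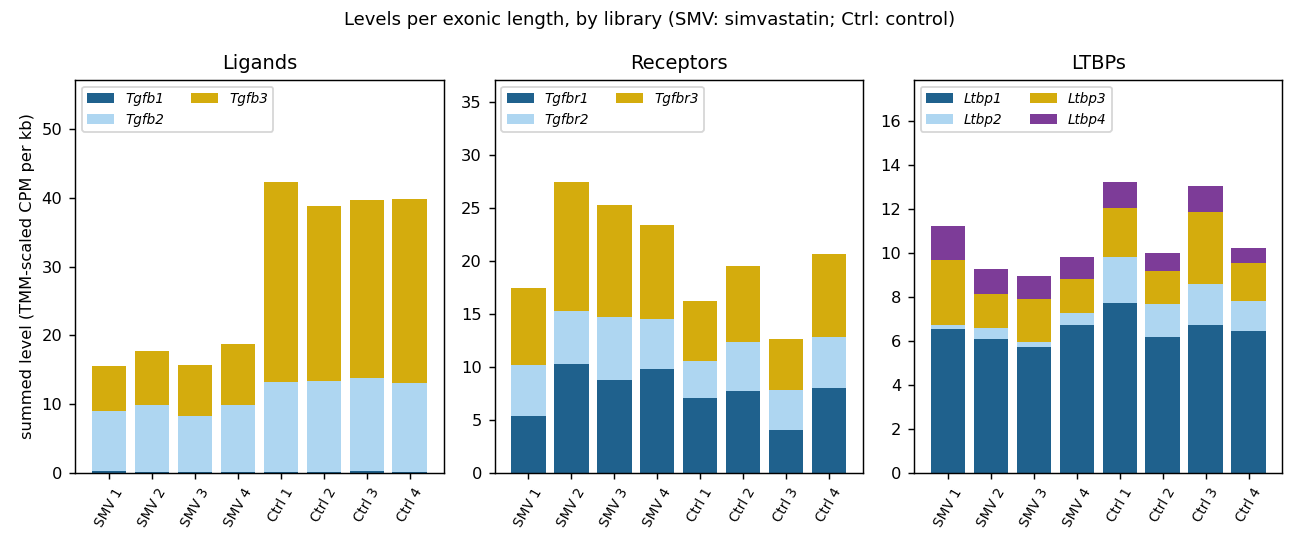
Stacked levels per kilobase of exonic length (TMM-scaled CPM per kb) in each library, simvastatin replicates 1 to 4 left of control replicates 1 to 4, for ligands, receptors and LTBPs. The ligand sum averages 16.9 with simvastatin and 40.1 in controls, and most of that gap is in Tgfb3.

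The receptor genes had higher means with simvastatin, and Tgfbr3 alone passed the test. Betaglycan, encoded by Tgfbr3 (chromosome 5, 107106570 to 107289629, minus strand), stood at 47.6, 79.8, 69.2 and 58.5 CPM in simvastatin replicates 1 to 4, and at 37.1, 47.0, 31.1 and 51.1 CPM in control replicates 1 to 4. Simvastatin replicate 1 lay inside the control range and the other 3 above it. The log2 fold change was 0.62 ± 0.19 (edgeR adjusted p = 0.049), just within the threshold. Leaving out 1 library ended the call in 6 cases (simvastatin replicates 2, 3 and 4, control replicates 1, 2 and 3), with edgeR adjusted p of 0.0586 to 0.122. By set, the log2 fold change was 0.76 in set 1, which did not pass, and 0.50 in set 2, which did (edgeR adjusted p = 0.0825 and 0.0475).

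Tgfbr1, the type I receptor (chromosome 4, 47353222 to 47414931), stood at 35.1, 67.3, 57.4 and 64.1 CPM in simvastatin replicates 1 to 4, and at 45.9, 50.4, 26.5 and 52.2 CPM in control replicates 1 to 4. Each group held 1 low library, simvastatin replicate 1 and control replicate 3. The log2 fold change of 0.36 ± 0.24 was within the replicate spread (edgeR adjusted p = 0.371, limma-voom 95% interval -0.20 to 0.93). In set 2 alone it had the same log2 fold change of 0.36 and passed (edgeR adjusted p = 0.0312).

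Tgfbr2, the type II receptor that binds ligand first (chromosome 9, 116084293 to 116175360, minus strand), ran from 38.4 to 48.3 CPM with simvastatin and from 28.7 to 39.7 CPM in controls. The groups overlapped slightly, and the log2 fold change of 0.28 ± 0.13 did not pass (edgeR adjusted p = 0.193). By set it was 0.53 in set 1 and 0.03 in set 2, and neither passed. The proportions of the 3 receptors overlapped for Tgfbr1 and Tgfbr2, while the share of Tgfbr3 was 38.1% to 44.3% with simvastatin and 35% to 37.8% in controls.

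Among the latent binding proteins, Ltbp2 fell and the other 3 did not pass. Ltbp2, the microfibril protein (chromosome 12, 84783212 to 84876532, minus strand), had 1.29, 4.38, 1.94 and 4.38 CPM in simvastatin replicates 1 to 4, and 16.9, 12.5, 15.6 and 11.2 CPM in control replicates 1 to 4. The simvastatin values correspond to 41 to 152 reads per library. Its log2 fold change of -2.23 ± 0.36 was the largest of the 10 genes (edgeR adjusted p = 0.0018). Of the simvastatin libraries, those of set 1 were lower than those of set 2, and of the controls those of set 1 were higher. Fitted by set, Ltbp2 had -3.35 (log2) for set 1 and -1.44 for set 2, and both passed. The difference between sets, 1.89 ± 0.31 as set 2 minus set 1, missed the threshold (edgeR interaction term, adjusted p = 0.0648). Over the series, 0.0558% of genes passed that test.

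Ltbp1, a carrier of latent ligand and the most abundant LTBP transcript here (chromosome 17, 75005568 to 75392512), ran from 59.9 to 70.4 CPM with simvastatin and from 64.5 to 80.9 CPM in controls. Its log2 fold change was -0.11 ± 0.10, with a limma-voom 95% interval of -0.33 to 0.12, the narrowest interval among the genes that did not pass. The carriers Ltbp3 (chromosome 19, 5740904 to 5758532) and Ltbp4 (chromosome 7, 27305136 to 27337692, minus strand) were lower. Ltbp3 ran from 7.92 to 15.2 CPM with simvastatin and from 7.78 to 17.0 CPM in controls, and Ltbp4 from 6.39 to 10.1 CPM with simvastatin and from 4.34 to 7.89 CPM in controls. Their log2 fold changes were -0.14 (limma-voom 95% interval -0.75 to 0.48) and 0.28 (-0.22 to 0.82). These intervals leave room for changes of moderate size in either direction.

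Within the family, Ltbp2 made up 1.41% to 5.80% of the summed LTBP level per kilobase with simvastatin and 13.4% to 15.6% in controls. Ltbp1 led in every library, with 58.5% to 68.6% with simvastatin and 51.3% to 62.9% in controls. Ltbp2 shares 9.34% of its exonic length with D030025P21Rik, which had 35 reads over all libraries. No source used here states whether the counting used strand, so reads in such a stretch cannot be assigned to 1 gene.

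**Figure D3:**
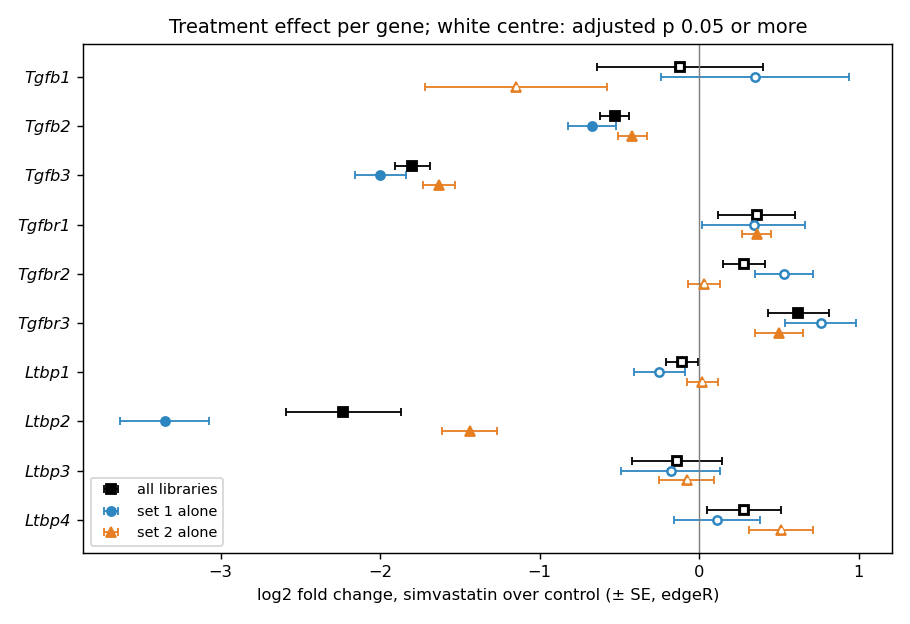
Log2 fold change of simvastatin over control (± SE, edgeR) for each of the 10 genes, from all libraries and from set 1 and set 2 alone; a white centre marks an adjusted p of 0.05 or more. Tgfb2, Tgfb3 and Ltbp2 lie left of 0 and pass in all 3 fits, and Ltbp2 is farthest apart between the sets, at -3.35 and -1.44.

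The order of levels per kilobase differed between the groups. With simvastatin it ran from Tgfbr3 (9.74 CPM per kb) through Tgfb2 (9.13), Tgfbr1 (8.57), Tgfb3 (7.69), Ltbp1 (6.26), Tgfbr2 (5.09), Ltbp3 (1.99), Ltbp4 (1.18) and Ltbp2 (0.366) to Tgfb1 (0.10). In controls it ran from Tgfb3 (26.8 CPM per kb) through Tgfb2 (13.2), Ltbp1 (6.75), Tgfbr1 (6.69), Tgfbr3 (6.35), Tgfbr2 (4.19), Ltbp3 (2.18), Ltbp2 (1.72) and Ltbp4 (0.969) to Tgfb1 (0.109). With simvastatin each of the first 6 genes overlapped its neighbour in range over libraries. In controls Tgfb3 and Tgfb2 were each separate from the gene below them, while Ltbp1 overlapped Tgfbr1, Tgfbr1 overlapped Tgfbr3 and Tgfbr3 overlapped Tgfbr2. Ltbp3 and Ltbp2 also overlapped in controls.

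The genes whose pattern over the 8 libraries was most like that of a ligand were sought among genes with a mean of at least 5 CPM, by Pearson correlation of log2 CPM. For Tgfb3 these were the replicative helicase genes Mcm5 (r = 0.998) and Mcm7 (r = 0.997). Mcm5 averaged 23.0 CPM with simvastatin and 105.3 CPM in controls. For Tgfb2 they were Unc13c, a synaptic vesicle priming gene (r = 0.991), and Gins1, a replication gene (r = 0.990). For Tgfb1 they were Hfe2, hemojuvelin (r = 0.983), and the cardiac transcription factor gene Gata4 (r = 0.976), with the few reads of Tgfb1 behind both values. The points for Tgfb2 and Tgfb3 share the split between treatments, which alone gives high values of r for any gene that changed, so the values describe likeness only.

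Several genes that store or release the ligand changed. Of 23 such genes tested, 2 rose and 6 fell, where 7.79% of all genes tested rose and 9.61% fell, and the median of their log2 fold changes was -0.16. Mmp2, a matrix metalloproteinase that can free latent TGF-beta, averaged 73.4 ± 18.9 CPM with simvastatin and 187.5 ± 22.1 CPM in controls (SD, n = 4 each; log2 fold change -1.35, edgeR adjusted p = 0.000496). Itgb6, the beta subunit of an integrin that activates latent TGF-beta, averaged 1.66 ± 0.404 CPM with simvastatin and 5.95 ± 1.18 CPM in controls (-1.84, edgeR adjusted p = 0.000459). Emilin1, a matrix protein that binds the TGF-beta precursor, fell with -1.10 (edgeR adjusted p = 0.00112). The integrin subunit gene Itgb3 rose with 1.26 (edgeR adjusted p = 0.00115). Of the rest, Plau, the urokinase gene, Bgn, the proteoglycan biglycan, and Thbs1, the activator thrombospondin 1, also fell, and Adamtsl2 rose; these 4 are named because the calls numbered few, after their values were seen. Thbs1 averaged 190.7 ± 102.4 CPM with simvastatin and 934.0 ± 280.2 CPM in controls (log2 fold change -2.29, edgeR adjusted p = 0.00242).

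Receptor partners and SMAD genes fell at a share near that of all genes. Of 25 such genes tested, 2 fell and 0 rose in edgeR, against 9.61% lower and 7.79% higher over all genes, and the list median was -0.04 (log2). At an unadjusted p under 0.05, 3 were lower and 0 higher, and DESeq2 and limma-voom each gave 0 higher. The 2 that fell were Acvrl1, the endothelial type I receptor ALK1, with a log2 fold change of -1.36 (edgeR adjusted p = 0.00378), and its co-receptor Eng, endoglin, with -0.50 (edgeR adjusted p = 0.0188). The call of Eng ended without control replicate 1 or simvastatin replicate 3 (edgeR adjusted p = 0.0513 and 0.0569) and in each set alone. Smad2, Smad3 and Smad4, the signal transducers, had log2 fold changes of 0.11, 0.03 and 0.19, and Smad7 and Skil, feedback inhibitors that TGF-beta induces, of -0.10 and -0.42. None of these 5 passed, and they were picked after their values were seen.

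Of 25 known target genes tested, 12 fell and 2 rose, against 9.61% lower and 7.79% higher over all genes, and the list median was -0.62 (log2). Acta2, smooth muscle actin, averaged 290.7 ± 87.0 CPM with simvastatin and 2582.2 ± 487.9 CPM in controls (log2 fold change -3.15, edgeR adjusted p = 2.04e-05). Tagln, which encodes transgelin, had -3.30 (edgeR adjusted p = 6.43e-05) and Ccn2, connective tissue growth factor, -2.09 (edgeR adjusted p = 0.000151). Cdkn1a, the cell cycle inhibitor p21, rose with 0.67 (edgeR adjusted p = 0.000168). Acta2, Tagln and Ccn2 are also known targets of SRF or YAP/TEAD, so they do not report on TGF-beta alone. Tagln shares 62.4% of its exonic length with Gm48529 and Ccn2 23.2% with Gm15270, both on the other strand. Tgfbi, a matrix protein gene induced by TGF-beta and named after its values were seen, averaged 36.5 ± 4.94 CPM with simvastatin and 37.4 ± 5.01 CPM in controls. The target list therefore held genes that fell sharply beside genes whose differences were within the replicate spread.

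**Figure D4:**
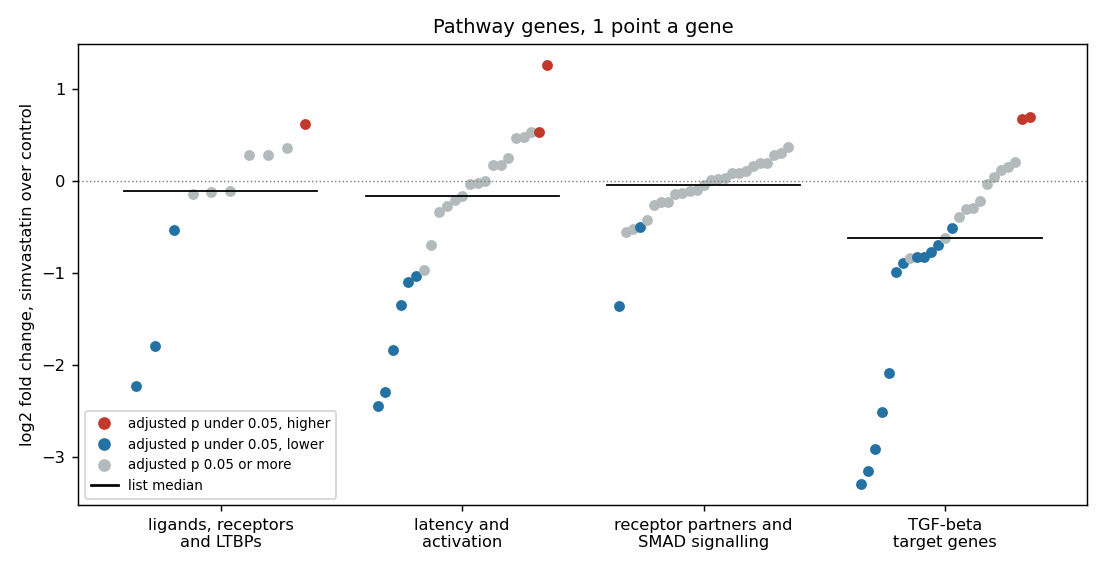
Log2 fold change of simvastatin over control for each tested gene, 1 point a gene, sorted within the 10 ligands, receptors and LTBPs and within 3 lists of pathway genes; blue and red points passed the edgeR test, and a line marks each list's median. The medians are -0.12, -0.16, -0.04 and -0.62 from left to right.

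Markers of other heart cell types moved beside these genes, and their part in the results was not tested. The 6 cardiomyocyte markers summed to 39255.9 to 46103.4 CPM with simvastatin and 35856.2 to 46498.5 CPM in controls, with 0 of 6 called by edgeR. Of 9 fibroblast and mesenchyme markers 4 fell (Pdgfra, Pdgfrb, Tcf21 and Col3a1), at sums of 1244.6 to 1455.9 CPM with simvastatin and 1165.5 to 2571.6 CPM in controls. Of 7 endothelial and endocardial markers Emcn and Npr3 fell and Tek rose, at sums of 201.5 to 256.7 CPM with simvastatin and 205.5 to 291.1 CPM in controls. The sums of these 2 lists overlapped between groups, but a sum follows its most abundant genes. Col1a1, which was not called, averaged 606.1 CPM with simvastatin and 796.2 CPM in controls, and Pdgfra 10.9 and 26.5 CPM. Of the 9 fibroblast markers 0 rose and 5 were not called, where 9.61% of all genes tested fell and 7.79% rose. Des (1727 CPM with simvastatin) and Lyz2 (289.3 CPM) weigh likewise in the smooth muscle and macrophage sums below. Of 6 epicardial markers Wt1 and Aldh1a2 fell and Msln rose (205.3 to 280.4 CPM with simvastatin, 165.9 to 268.2 CPM in controls). Of 6 smooth muscle and pericyte markers Myh11 and Cnn1 fell (1865.4 to 1986.4 CPM with simvastatin, 1625.4 to 2071.8 CPM in controls), and of 6 macrophage markers Cd68 and Adgre1 fell (298.6 to 391.5 CPM with simvastatin, 342.4 to 433.7 CPM in controls). Of 6 erythroid markers Hbb-y rose (14.5 to 35 CPM with simvastatin, 7.40 to 12.8 CPM in controls). No marker was at 0 in all libraries.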

How the data were processed

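RNA was sequenced from 4 simvastatin and 4 control libraries, grouped by their titles and treatment labels. The authors deposited unnormalized counts for each gene. Trimmomatic 0.36, STAR 2.5.2b, Subread 1.5.2 and featureCounts, and GRCm38 and mm10 as builds, are listed in the submitters' processing notes. The sources used here do not give the annotation release. Symbols came from a GENCODE vM21 table, which matched 99.3% of identifiers, and coordinates are those of the files (1-based). Of 49315 genes, 16126 passed filterByExpr and were tested with edgeR 4.0.16 (R 4.3.3), TMM scaling, treatment as the only term, two-sided, Benjamini-Hochberg adjustment at 0.05. SE is the log2 fold change over the root of F. Intervals and 1 alternative used limma 3.58.1, another DESeq2 1.42.0. Levels per kilobase use the exonic length in the files. Every pair of libraries in a group differed beyond counting noise. The edgeR step was tested on simulated data.

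The genes and lists were chosen with earlier results of these data known. Named were the 10 genes, up to 4 genes with the smallest p per pathway list among those called (the 2 most abundant where fewer than 2 passed), and the 2 genes most like each ligand. Alternatives were library totals, DESeq2 size factors, DESeq2's Wald test, limma-voom, no filter, a floor of 1 CPM in at least 4 samples, a block for the replicate number, set as a term, each set alone, each library left out, and GC-adjusted offsets, which were added after seeing the data. More reads per gene give more precise values, and Tgfb1 had as few as 7. Some results are not reported here.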

Additional observations from a re-analysis of the deposited data

Results flagged for a closer look

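Itgb3, an integrin subunit gene of the latency list, stood at 20.8 CPM in control replicate 2, against 13.2 to 13.9 CPM in the other controls, a gap that made up most of the group's range. It was the 1 such library among 40 groups of 4 examined over the named genes. Chance alone flags about 1 group in 20.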

How the results depend on the processing

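The falls of Tgfb2, Tgfb3 and Ltbp2 kept their direction and passed under every alternative run. Leaving out each library in turn gave log2 fold changes of -0.57 to -0.49 for Tgfb2, -1.88 to -1.73 for Tgfb3 and -2.48 to -1.98 for Ltbp2. It gave 0 to 1 of the 10 genes higher and 3 lower, 1 to 3 latency genes higher, 1 to 3 receptor partners lower and 1 to 2 targets higher. Over all genes it gave 817 to 1115 higher, 1185 to 1417 lower and 2002 to 2462 in all, the fewest higher without simvastatin replicate 3. Set 1 alone called 648 genes higher and 979 lower (1627 in all), with 0 of the 10 genes higher, 1 latency gene and 1 target higher and 1 receptor partner lower. Set 2 alone called 2 of the 10 genes higher (Tgfbr3 and Tgfbr1), 5 latency genes and 4 targets higher and 4 receptor partners lower. With set as a term, 4 latency genes were higher. Over all genes, set 2 alone called 1103 higher and 1872 lower (2975 in all), and set as a term called 3362 in all. The main fit over all libraries called 2805. Each set alone rests on fewer libraries, and the cause of these shifts was not tested. Simvastatin and control libraries of the same replicate number did not deviate together (r of -0.21 to 0.16). This cannot settle whether they shared a culture, since the deviations also carry trends with GC content that differ by library. With the replicate block, 0 of the 10 genes and 1 target were higher (Tgfbr3 edgeR adjusted p = 0.0574). In all, 2131 genes were called with the block, against 2805 without it. Among genes that never passed, the sign turned for Tgfb1 in set 1 alone (0.35), Ltbp1 in set 2 alone (0.02), and on leaving out single libraries for Tgfb1 (-0.57 to 0.19) and Ltbp3 (-0.38 to 0.13). Without length scaling, Ltbp2 ranked 7 and Ltbp3 8 in controls. Depth limits Tgfb1 above all.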

Other observations

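Simvastatin replicate 1 and control replicate 3 stood at the same end of their groups in 4 of the 10 genes, picked after their values were seen. They had the lowest Tgfbr1 (35.1 and 26.5 CPM) and Tgfbr3 (47.6 and 31.1 CPM) of their groups and the highest Ltbp3 (15.2 and 17.0 CPM) and Tgfb1 (0.914 and 0.858 CPM). Across genes, their deviations from the group mean rose with the GC content of the transcript (Spearman's rho 0.33 for simvastatin replicate 1 and 0.36 for control replicate 3, over genes, which are not independent), against -0.33 to 0.12 in the other 6 libraries. The longest transcripts of Tgfbr1 and Tgfbr3 had 41.0% and 48.6% GC, and those of Ltbp3 and Tgfb1 58.3% and 52.5%. Simvastatin replicate 1 had the lowest Tgfb3 (53.0% GC, 22.3 CPM) and Ltbp2 (58.5% GC, 1.29 CPM) of its group. It had the highest Ltbp4 (62.2% GC, 10.1 CPM). Control replicate 3 had the highest Tgfb2 of its group (46.9% GC, 78.6 CPM). In Ltbp2 and Ltbp4 it stood at 15.6 and 7.67 CPM, below control replicate 1 at 16.9 and 7.89 CPM. Whether GC content had a part in where these libraries stood was not tested. With GC-adjusted offsets, chosen after seeing the data, the same calls were made: Tgfb3 had -1.80, Tgfb2 -0.50, Ltbp2 -2.19 and Tgfbr3 0.62 (edgeR adjusted p = 0.0347 for the last).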
